A study of Mus musculus with 8 samples.

Results

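The 10 genes described here form the core of the NRF2 and glutathione defence: Nfe2l2, Keap1, Gclm, Gclc, Gsr, Hmox1, Nqo1, Txnrd1, Srxn1 and Prdx1. They were chosen by name, as the rows with these symbols among the 24421 gene symbols of the count files, and all 10 were found and passed the filter on low counts. Earlier results of these data were known when the choice was made. NRF2, encoded by Nfe2l2, is a transcription factor that the adaptor KEAP1 hands to a ubiquitin ligase for degradation. When electrophiles or oxidants modify KEAP1, NRF2 escapes, pairs with a small MAF protein and binds antioxidant response elements in genes that make glutathione, reduce thioredoxin and detoxify quinones and haem. In macrophages this system balances the oxidants that the cells themselves make.

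The data are RNA-seq counts from 8 libraries of mouse bone marrow-derived macrophages (BMDM, macrophages grown in culture from bone marrow), all taken 24 h after interleukin 4 (IL-4). In 4 libraries (CKO, replicates 2, 6, 7 and 8) the genotype was OPA1f/f; Lyz2-Cre, and in 4 (FLOX, replicates 3, 4, 6 and 7) it was OPA1f/f. Both groups thus carry the floxed Opa1 allele and the IL-4 treatment, and CKO alone carries Cre, which is expressed in myeloid cells from the Lyz2 locus. The comparison addresses how OPA1, a GTPase of the inner mitochondrial membrane, bears on macrophage transcription. Genotype, Cre itself and any unrecorded batch cannot be told apart in it. The labels give no age or strain, no unstimulated group was analysed here, and they do not say whether libraries of a group came from separate mice, so p-values measure only the spread between these libraries.

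Between 11764855 and 18939948 read pairs per library fell in genes. The driver gene Lyz2 was lower in every CKO library (2030 ± 251 against 7439 ± 597 CPM, counts scaled to 1000000 per library; here and below ± gives the SD of the 4 libraries of a group), while Opa1, counted as a whole gene, stood at 100.1 ± 4.42 and 114 ± 11.6 CPM and was not called (edgeR adjusted p = 0.0544). The call of Opa1 was gained without FLOX replicate 3 (edgeR adjusted p = 0.0182) or FLOX replicate 6 (0.0496), without both (log2 fold change -0.29, adjusted p = 0.00139) and with upper-quartile factors (0.0446), and was not gained in the other 14 alternatives. Macrophage markers were abundant: the sum of the 10 listed was 9396 to 10523 CPM in CKO and 15693 to 16865 CPM in FLOX, with Lyz2 the largest part of the difference. The extraction protocol speaks of islets, but 9 of 10 islet markers had 0 counts in all libraries, among them Ins1, Ins2 and Gcg. CKO replicate 2 lay nearest to FLOX for 5 of the 8 genes called below, and FLOX replicate 6 nearest to CKO for 4 of them. These libraries were also nearest to the other group along the first principal component of all tested genes (70.2% of the variance). There CKO replicate 2 was at -19.6 and FLOX replicate 6 at 19.3, so this nearness is not particular to the 10 genes. FLOX replicate 6 also had the largest share of read pairs of low mapping quality (18.02%, against 12.2% to 15.5% in the other 7).

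NRF2 acts through short elements near the genes it binds, and the sequences before 3 of the genes are shown for that reason: Gclm, which rose most, Srxn1, and Prdx1, which was not called. RefSeq promoter sequences (GRCm38.p6, the assembly of mm10) were at hand for 7 of the 10 genes, all but Gclc, Gsr and Hmox1. Printed is the part of the 250 bases before the RefSeq start that lies in no annotated exon. The capitals mark the core antioxidant response element TGACNNNGC and the AP-1 type element TGAGTCA, each on either strand, which can overlap each other.
Gclm, chr3:122245307-122245556, plus strand: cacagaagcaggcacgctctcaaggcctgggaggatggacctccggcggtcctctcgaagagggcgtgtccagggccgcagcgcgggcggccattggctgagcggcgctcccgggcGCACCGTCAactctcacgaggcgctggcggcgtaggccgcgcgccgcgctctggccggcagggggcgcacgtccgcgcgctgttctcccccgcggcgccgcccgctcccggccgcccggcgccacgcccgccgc
Srxn1, chr2:152105274-152105515, plus strand: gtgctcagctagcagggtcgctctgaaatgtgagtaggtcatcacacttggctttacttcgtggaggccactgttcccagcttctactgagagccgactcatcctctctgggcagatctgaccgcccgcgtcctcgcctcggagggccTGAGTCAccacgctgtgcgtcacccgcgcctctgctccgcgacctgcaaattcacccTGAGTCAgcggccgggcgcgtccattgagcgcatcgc
Prdx1, chr4:116685349-116685543, plus strand: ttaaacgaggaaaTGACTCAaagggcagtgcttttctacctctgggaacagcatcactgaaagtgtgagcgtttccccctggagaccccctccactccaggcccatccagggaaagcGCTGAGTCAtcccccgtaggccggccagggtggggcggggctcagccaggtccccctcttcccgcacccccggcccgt
In Gclm the match reads GCACCGTCA, on the minus strand, and begins 134 bases before the start. In Prdx1 it reads GCTGAGTCA, begins 133 bases before the start and contains a TGAGTCA, and a second AP-1 type match, TGACTCA on the minus strand, begins at 237. Srxn1 holds TGAGTCA at 102 and 45 bases before its start and no TGACNNNGC in this window. Nfe2l2 and 1 of the 3 windows of Txnrd1 also hold TGACNNNGC, whereas the windows of Keap1 and Nqo1 hold neither motif. Of all 32851 RefSeq windows of 250 bases 10.2% hold TGACNNNGC and 4.46% TGAGTCA, so matches alone describe letters and not binding. Genes with and without a match in these windows stood among those that rose. Sequence outside the windows was not searched, so a gene without a match may hold an element elsewhere.

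Of the 10 genes 7 were higher in CKO, 1 was lower and 2 were not called (edgeR's quasi-likelihood test, adjusted p below 0.05 over all 11519 genes tested). Over all tested genes 23.8% were higher, 21.6% lower and 45.4% called in either direction, which is the background for these counts. The groups were fully separate in CPM for 8 of the 10 genes, against 42.7% of all tested genes. The median log2 fold change was 0.29 over the 10 genes and -0.02 over all tested genes. Because the 10 genes were chosen with earlier results of these data known, these comparisons only describe them and test nothing. Among the 10, Gclm, Gclc, Gsr and Txnrd1 rose most, genes of glutathione synthesis and reduction and of thioredoxin reduction. The factor Nfe2l2 itself was the gene that fell, and Hmox1 and Prdx1, both abundant, were the 2 not called. Outside the 10, the glutathione synthetase gene Gss (edgeR log2 fold change -0.045) and the thioredoxin reductase genes Txnrd2 (-0.083) and Txnrd3 (0.18) were not called. In bulk RNA a lower level per cell and fewer expressing cells cannot be told apart, here and in all results that follow.

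**Figure D1:**
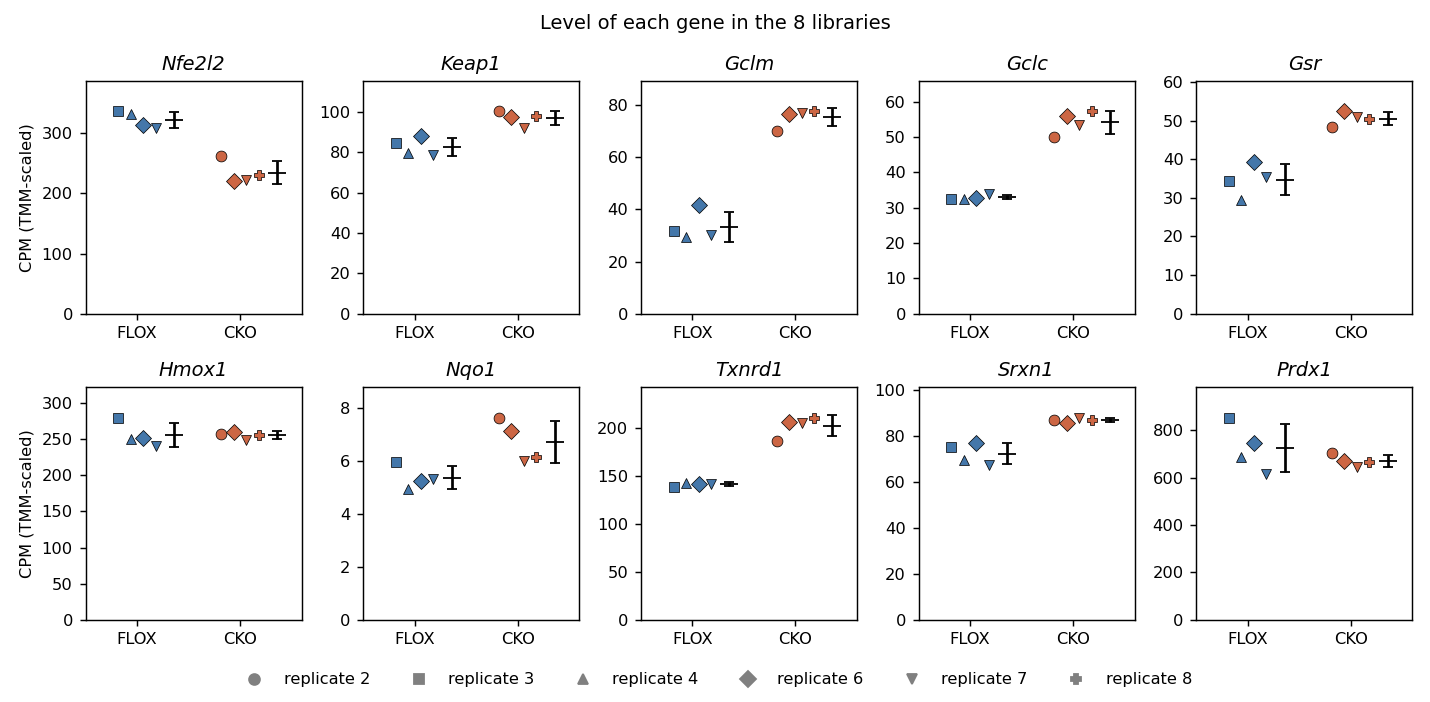
CPM (vertical axes from 0, TMM-scaled library sizes) of the 10 genes in each of the 4 FLOX (blue) and 4 CKO (orange) libraries, with the mean and SD as black bars and a symbol for each replicate number. Groups are separate for 8 genes and overlap for Hmox1 and Prdx1, and CKO replicate 2 is the lowest CKO library for Gclm, Gclc, Gsr and Txnrd1.

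The factor and its adaptor moved in opposite directions. Nfe2l2 (ENSMUSG00000015839, chromosome 2, 75675513 to 75704641, minus strand, mm10) stood at 336, 331, 314 and 309 CPM in FLOX replicates 3, 4, 6 and 7 and at 262, 221, 222 and 231 CPM in CKO replicates 2, 6, 7 and 8. All CKO libraries were below all FLOX libraries, and CKO replicate 2 was the highest of its group. The mean fell from 323 ± 13.4 to 234 ± 19.2 CPM (edgeR log2 fold change -0.46 with SE 0.07, at an adjusted p of 0.000131), or 72.6% of the FLOX level (95% interval 64.8% to 81.3%). Of the 2492 genes lower in CKO, 901 fell by as much or more.

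Keap1 (ENSMUSG00000003308, chromosome 9, 21229730 to 21239361, minus strand), the adaptor that marks NRF2 for degradation, was slightly higher. Its level came to 84.7, 79.5, 88.2 and 78.5 CPM in FLOX replicates 3, 4, 6 and 7 and 100.2, 97.3, 92.2 and 97.7 CPM in CKO replicates 2, 6, 7 and 8. The lowest CKO library exceeded the highest FLOX library by little, yet the groups did not overlap. On the log2 scale edgeR put the change at 0.23 with SE 0.06 and an adjusted p of 0.00822, or 117% of FLOX (95% interval 106% to 129%). An annotated gene on the other strand, Gm16754, overlaps its exons, and since the strand setting of the counting is not given in the sources used here, its reads could have been counted as Keap1, as it has no row of its own in the count files.

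The number of Nfe2l2 counts per Keap1 count therefore differed between the groups. The log2 ratio within a library was 1.99, 2.06, 1.83 and 1.97 in FLOX replicates 3, 4, 6 and 7 and 1.39, 1.18, 1.27 and 1.24 in CKO replicates 2, 6, 7 and 8. The mean was lower in CKO by 0.69 on this scale (exact two-sided permutation test, p = 0.0286, and 0.0429 adjusted over the 3 ratios tested). The unadjusted p is the smallest that 4 against 4 libraries allow. Each gene alone already separated the groups fully, in opposite directions, so the test had to give this p and adds nothing to their own calls. The same holds where libraries are left out below. Against Bach1, the gene of a repressor that competes with NRF2 for the same elements, Nfe2l2 did not pass this test: the log2 ratio was 0.27 ± 0.18 in CKO and 0.21 ± 0.38 in FLOX (exact two-sided permutation test, p = 0.8286). Bach1 was at 220, 370, 228 and 321 CPM in FLOX replicates 3, 4, 6 and 7 and at 184, 183, 211 and 198 CPM in CKO replicates 2, 6, 7 and 8. Bach1 thus fell too (edgeR log2 fold change -0.55 with SE 0.15, at an adjusted p of 0.0134), with a wide spread in FLOX, where replicates 4 and 7 were high.

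The subunits of glutamate-cysteine ligase, which makes the first bond of glutathione, rose more than any other gene of the 10. Gclm (ENSMUSG00000028124, chromosome 3, 122245557 to 122270732, plus strand), the modifier subunit that makes the enzyme more efficient, stood at 31.8, 29.3, 41.6 and 30.4 CPM in FLOX replicates 3, 4, 6 and 7. In CKO replicates 2, 6, 7 and 8 it stood at 70.2, 76.6, 77.2 and 77.6 CPM. The groups lay far apart, with FLOX replicate 6 above the other FLOX libraries and CKO replicate 2 below the other CKO libraries. Gclm rose 2.26-fold (95% interval 1.91 to 2.67; edgeR log2 fold change 1.17 with SE 0.10, at an adjusted p of 2.34e-06), and 374 of the 2739 genes higher in CKO (13.7%) rose as much or more. It was the gene of the 10 with the smallest p, at rank 227 of all tested genes, and without FLOX replicate 6 its log2 fold change was 1.31. Exons of Gm17494 (other strand) and Gm6061 overlap those of Gclm, and neither has a row in the count files.

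Gclc (ENSMUSG00000032350, chromosome 9, 77754535 to 77794485, plus strand), the catalytic subunit, was nearly level across FLOX at 32.6, 32.6, 32.7 and 33.9 CPM in replicates 3, 4, 6 and 7. In CKO replicates 2, 6, 7 and 8 it reached 50.0, 55.8, 53.4 and 57.3 CPM, so that the lowest CKO library was well above the highest FLOX library. Gclc rose 1.64-fold (95% interval 1.48 to 1.83; edgeR log2 fold change 0.72 with SE 0.06, at an adjusted p of 2.87e-06). The modifier rose more than the catalytic subunit: the log2 ratio of Gclc to Gclm counts was 0.03, 0.15, -0.35 and 0.16 in FLOX replicates 3, 4, 6 and 7 and -0.49, -0.46, -0.53 and -0.44 in CKO replicates 2, 6, 7 and 8. The mean ratio was lower in CKO by 0.48 on the log2 scale (exact two-sided permutation test, p = 0.0286; 0.0429 adjusted over the 3 ratios). FLOX replicate 6 was the FLOX library closest to CKO in this ratio, and without it the difference was -0.59. With any 1 CKO library left out the adjusted p of this ratio and of Nfe2l2 to Keap1 was 0.0857 (exact permutation test), and with any 1 FLOX library left out it was 0.0429 for both. Unadjusted, the ratio of Gclc to Gclm had p = 0.0571 without a CKO library and that of Nfe2l2 to Keap1 p = 0.0286, by the same exact permutation test.

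**Figure D2:**
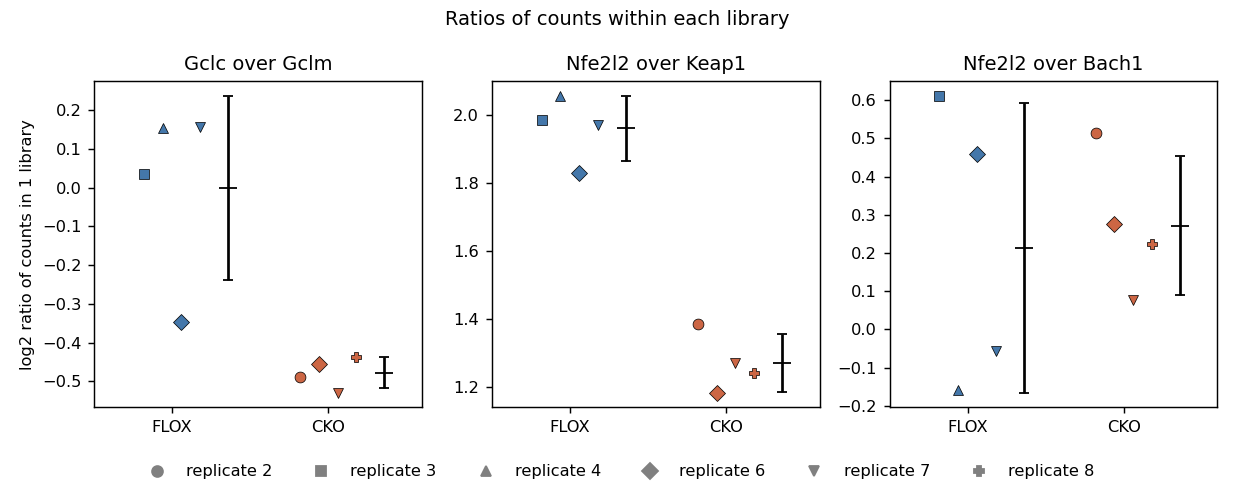
Log2 ratio of counts of 2 genes within each library (vertical axes, which do not start at 0) for FLOX (blue) and CKO (orange), with mean and SD as black bars and a symbol for each replicate number. The groups separate for Gclc over Gclm, with FLOX replicate 6 at -0.35, and for Nfe2l2 over Keap1, and they overlap for Nfe2l2 over Bach1.

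Gsr (ENSMUSG00000031584, chromosome 8, 33652523 to 33698163, plus strand) encodes glutathione reductase, which turns oxidised glutathione back into its reduced form with NADPH. It was at 34.5, 29.5, 39.3 and 35.3 CPM in FLOX replicates 3, 4, 6 and 7 and at 48.4, 52.4, 51.0 and 50.3 CPM in CKO replicates 2, 6, 7 and 8. CKO libraries agreed closely while FLOX libraries spread from replicate 4 to replicate 6, without overlap between groups. Gsr rose 1.46-fold (95% interval 1.27 to 1.67; edgeR log2 fold change 0.54 with SE 0.08, at an adjusted p of 0.000176).

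Of the thioredoxin genes among the 10, the cytosolic reductase rose most. Txnrd1 (ENSMUSG00000020250, chromosome 10, 82833951 to 82897712, plus strand), the cytosolic thioredoxin reductase and a selenoprotein, stood at 138, 143, 142 and 142 CPM in FLOX replicates 3, 4, 6 and 7. In CKO replicates 2, 6, 7 and 8 it stood at 186, 206, 205 and 211 CPM, all above FLOX. The rise was 1.43-fold (95% interval 1.30 to 1.58; edgeR log2 fold change 0.52 with SE 0.06, at an adjusted p of 1.35e-05). Srxn1 (ENSMUSG00000032802, chromosome 2, 152105516 to 152111376, plus strand) encodes sulfiredoxin, which repairs overoxidised peroxiredoxins. It was at 75.2, 69.5, 77.2 and 67.4 CPM in FLOX replicates 3, 4, 6 and 7 and at 87.0, 85.7, 88.0 and 87.1 CPM in CKO replicates 2, 6, 7 and 8. Its CKO libraries differed by a few percent (coefficient of variation 1.10%), and it rose 1.20-fold (95% interval 1.09 to 1.33; edgeR log2 fold change 0.27 with SE 0.06, at an adjusted p of 0.00315).

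Prdx1 (ENSMUSG00000028691, chromosome 4, 116685544 to 116700822, plus strand) encodes peroxiredoxin 1, the abundant peroxidase that thioredoxin and sulfiredoxin serve. Its level came to 854, 688, 746 and 614 CPM in FLOX replicates 3, 4, 6 and 7 and 704, 669, 644 and 668 CPM in CKO replicates 2, 6, 7 and 8. The CKO range lay inside the FLOX range, and FLOX replicates 3 and 6 were above FLOX replicates 4 and 7. On the log2 scale edgeR put the change at -0.11 with SE 0.09 and an adjusted p of 0.327, with a 95% interval of 79.6% to 107% of FLOX. Of the 10 genes, 5 (Prdx1, Hmox1, Srxn1, Keap1 and Gclm) were higher in both of FLOX replicates 3 and 6 than in both of FLOX replicates 4 and 7. This division of the FLOX libraries also separates them along the second principal component of all tested genes (12.7% of the variance). How many of all tested genes divide in this way was not counted, so the 5 are not read as a trait of the 10. Without FLOX replicates 3 and 6 the log2 fold change of Prdx1 was 0.043.

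Hmox1 and Nqo1 are widely used as reporters of NRF2 activity. Hmox1 (ENSMUSG00000005413, chromosome 8, 75093621 to 75100589, plus strand) encodes haem oxygenase 1, which breaks haem down to biliverdin, iron and carbon monoxide. It was at 280, 251, 252 and 241 CPM in FLOX replicates 3, 4, 6 and 7 and at 257, 260, 248 and 256 CPM in CKO replicates 2, 6, 7 and 8. All CKO libraries fell within the FLOX range. Means were 256 ± 5.10 CPM for CKO and 256 ± 16.8 CPM for FLOX (edgeR log2 fold change -0.0015 with SE 0.06, at an adjusted p of 0.988). The 95% interval, 90.3% to 110.5% of FLOX, leaves room for a change of about that size and not for one like that of Gclm.

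Nqo1 (ENSMUSG00000003849, chromosome 8, 107388225 to 107403206, minus strand) encodes a quinone reductase and was the least abundant of the 10. It had 65 to 97 counts per FLOX library and 91 to 108 per CKO library, or 5.96, 4.92, 5.24 and 5.32 CPM in FLOX replicates 3, 4, 6 and 7 and 7.63, 7.12, 5.98 and 6.13 CPM in CKO replicates 2, 6, 7 and 8. CKO replicate 7 and FLOX replicate 3 were almost equal, so the groups only just did not overlap. On the log2 scale edgeR put the change at 0.32 with SE 0.12 and an adjusted p of 0.0445, or 125% of the FLOX level (95% interval 102% to 152%). This call was lost in 11 of 18 alternatives, including those without CKO replicate 2 (edgeR adjusted p = 0.0758), CKO replicate 6 (0.0916), FLOX replicate 4 (0.101), FLOX replicate 6 (0.0894) or FLOX replicate 7 (0.0767), and Nqo1 is the least certain of the 7 rises.

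**Figure D3:**
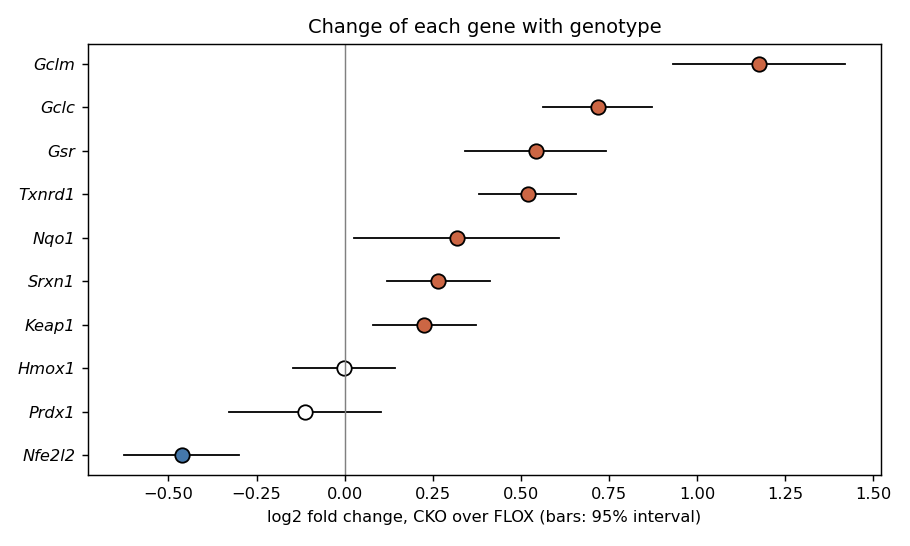
Log2 fold change of each of the 10 genes, CKO over FLOX (horizontal axis), with a 95% interval built from its SE as a bar. Orange points were called higher, the blue point lower and white points were not called. Gclm is highest at 1.17, Nfe2l2 lowest at -0.46, and the intervals of Hmox1 and Prdx1 include 0.

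Levels between genes were compared per kilobase of the union of annotated exons (GENCODE M21). In FLOX the order on this scale was Prdx1 (238 CPM per kb), Hmox1 (146), Nfe2l2 (85.0), Srxn1 (25.6), Txnrd1 (19.9), Keap1 (17.6), Gsr (12.6), Gclc (8.75), Gclm (5.29) and Nqo1 (3.45). In CKO the order of level per kilobase was the same for all 10 genes. After the first 4 stood Txnrd1 (28.5), Keap1 (20.6), Gsr (18.4), Gclc (14.4), Gclm (12.0) and Nqo1 (4.32). Since Prdx1 and Hmox1 hold most of the counts, the sum of the 10 genes overlapped between the groups, at 1688 to 1773 CPM in CKO and 1556 to 1873 CPM in FLOX. Exon unions include rare isoforms, so a level on this scale depends on the annotation.

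The spread within a group differed between the genes. In FLOX the coefficient of variation of CPM was 17.0% for Gclm, 14.0% for Prdx1 and 11.6% for Gsr, but 1.85% for Gclc and 1.48% for Txnrd1. In CKO it was 11.8% for Nqo1 and 8.20% for Nfe2l2 and at most 5.84% for the other 8. By root mean square difference of centred log2 CPM over the 8 libraries, the genes outside the 10 with profiles nearest to that of Nfe2l2 were Med22 (0.0301), Ctss (0.0318) and Fblim1 (0.0324), of 10519 compared. Nearest to Gclm were Chaf1a (0.0346), Mcm6 (0.0495) and Cdca5 (0.0568). Their log2 fold changes were -0.46 for Med22, -0.46 for Ctss, -0.47 for Fblim1, 1.18 for Chaf1a, 1.25 for Mcm6 and 1.07 for Cdca5, so likeness here largely means a change of like size with genotype.

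Other genes of the antioxidant network were described in 8 lists. Of their 152 genes 128 were tested, of which 24 were higher (18.8%), 37 lower (28.9%) and 67 not called, beside 23.8% and 21.6% of all tested genes. The lists, too, were chosen with earlier results of these data known. Among 16 tested genes that control NRF2, 4 were higher and 3 lower (median log2 fold change -0.0056). Nfe2l1, a related factor that drives proteasome genes, was higher by 0.37 (217 ± 15.2 to 282 ± 10.1 CPM; edgeR adjusted p = 0.000408), as were Pgam5 (0.39), a mitochondrial phosphatase that binds KEAP1, and Trim21 (0.28). Of the small MAF partners, Maff was scarce and fell from 3.45 ± 0.711 to 1.82 ± 0.305 CPM (-0.89 on the log2 scale, edgeR adjusted p = 0.00278). Mafk was more abundant and fell slightly, from 39.2 ± 0.757 to 34.3 ± 2.35 CPM (-0.19, edgeR adjusted p = 0.0316). Mafg, at 36.1 ± 5.16 CPM in FLOX and 40.1 ± 2.54 CPM in CKO, was not called (0.15, edgeR adjusted p = 0.212). The count of lower genes in this list ran from 1 to 5 over the alternatives, with 1 without CKO replicate 6.

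Among 32 tested genes of other glutathione enzymes 7 were higher and 7 lower (median -0.13). Chac1, which degrades glutathione, rose from 3.64 ± 0.772 to 9.55 ± 2.48 CPM (edgeR log2 fold change 1.38 with SE 0.20, at an adjusted p of 0.000113), and Gstcd rose by 1.12. The transferases Mgst1 and Gstm1 were lower: Mgst1 fell from 113 ± 8.53 to 59.3 ± 9.44 CPM (-0.93, edgeR adjusted p = 1.27e-05) and Gstm1 from 133 ± 16.0 to 87.9 ± 10.1 CPM (-0.60, edgeR adjusted p = 0.000284). Gstm1 has close relatives, and read pairs that align to more than 1 of them were not assigned. Without CKO replicate 7 or without CKO replicate 8 this list had 4 lower genes.

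Among 19 other thioredoxin, peroxiredoxin and repair genes 3 were higher and 5 lower (median -0.0045). The sestrin Sesn2 rose from 18.8 ± 2.05 to 34.9 ± 1.38 CPM (edgeR log2 fold change 0.89 with SE 0.08, at an adjusted p of 4.67e-06), whereas its relative Sesn1 fell from 150 ± 5.09 to 92.4 ± 9.33 CPM (-0.71, edgeR adjusted p = 8.68e-06). The methionine sulfoxide reductases Msrb1 (-0.54) and Msra (-0.45), which repair oxidised methionine, also fell. Among 16 enzymes that supply NADPH, 6 were higher and 4 lower (median 0.048). Of the folate enzymes in this list, Aldh1l2 (1.70), Mthfd2 (1.38; 59.5 ± 12.1 to 155 ± 10.4 CPM) and Mthfd1 (0.82) rose and Aldh1l1 (-0.28) fell. Malic enzyme Me1 rose by 1.03, while cytosolic isocitrate dehydrogenase Idh1 fell from 657 ± 21.98 to 386 ± 36.2 CPM (-0.77, edgeR adjusted p = 4e-06).

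The remaining lists had more lower than higher genes. Of 4 tested genes of superoxide and peroxide removal none was higher and 2 were lower, Ccs (-0.32) and catalase Cat (-0.18), while Sod1 and Sod2 were at 0.035 and -0.056 and not called. By edgeR 0 were higher at an unadjusted p below 0.05, and 0 by DESeq2 or limma-voom. Without FLOX replicates 3 and 6 Sod1 was called higher (0.205 on the log2 scale, edgeR adjusted p = 0.00764), the only gene of this list so called in any alternative. Only 1 of these was lower without CKO replicate 6, 7 or 8 or without FLOX replicate 6, and the call of Cat was lost without each of those 4 libraries. Of 9 tested haem and iron genes 2 were higher and 4 lower (median -0.19). The ferritin subunits were both lower, Fth1 from 10679 ± 1100 to 7978 ± 787 CPM (-0.42 on the log2 scale, edgeR adjusted p = 0.0026) and Ftl1 by 0.27 on the log2 scale, as was biliverdin reductase Blvra (-0.30), whereas Abcb6 was higher by 0.36. The call of Ftl1 was lost without CKO replicate 6 (edgeR adjusted p = 0.0766), 7 (0.0716) or 8 (0.0846) or without FLOX replicate 6 (0.059). This list had 1 higher gene without CKO replicate 6 or 7 or FLOX replicate 4, 6 or 7, and 2 lower genes without CKO replicate 6, 7 or 8 or FLOX replicate 6.

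Of 22 tested genes of other detoxifying NRF2 targets 2 were higher and 5 lower (median -0.07). The aldo-keto reductase Akr1b8 rose from 18.9 ± 1.93 to 29.4 ± 1.09 CPM and the exporter Abcc4 from 21.0 ± 0.485 to 30.6 ± 2.49 CPM (log2 fold changes 0.63 and 0.55). Carbonyl reductase Cbr1 (-0.55) and Akr1a1 (-0.44) fell. Without FLOX replicate 3 there were 4 higher genes, and without CKO replicate 6, 7 or 8 there were 3 lower ones. Of 10 tested genes of the phagocyte NADPH oxidase, an enzyme complex that makes superoxide, 7 were lower and none higher (median -0.26). After the filter on low counts 0 were higher by edgeR at an unadjusted p below 0.05, and 0 by limma-voom. In the whole list 1 gene was higher by DESeq2 with its own filter, and 1 by edgeR with no filter on low counts. The proton channel Hvcn1 fell from 54.0 ± 4.94 to 33.7 ± 2.10 CPM (-0.68, edgeR adjusted p = 2.34e-05), Ncf1 from 515 ± 13.6 to 413 ± 23.0 CPM (-0.32) and Cyba by 0.44 on the log2 scale.

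**Figure D4:**
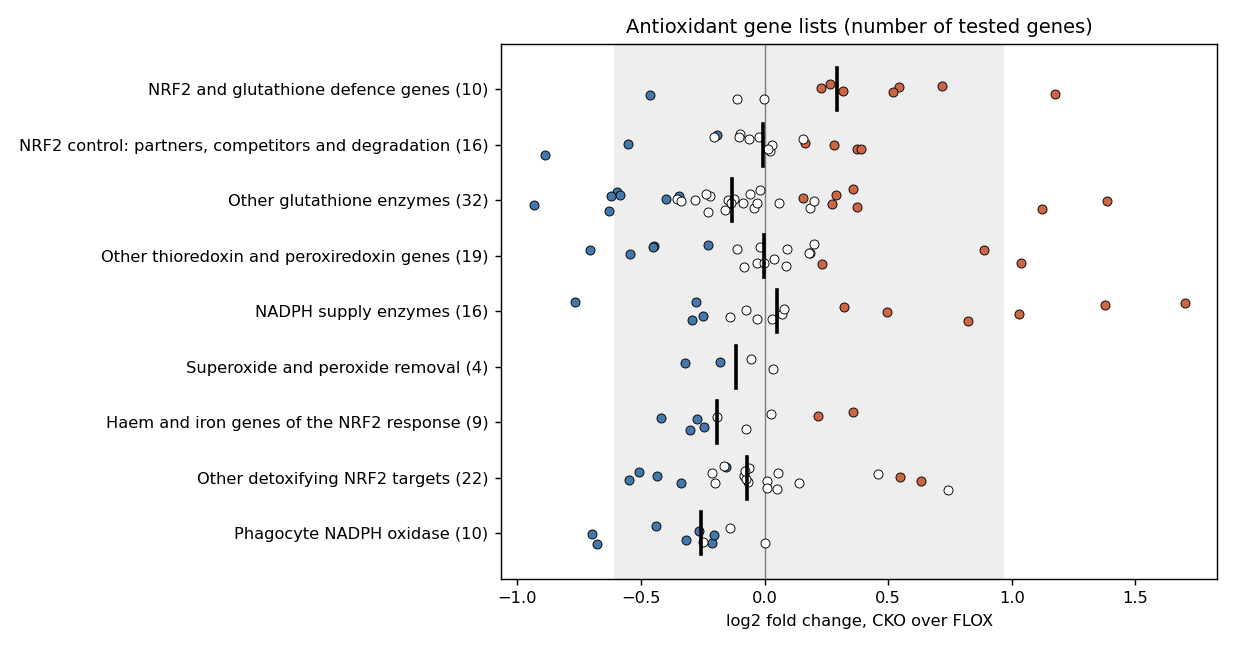
Log2 fold change, CKO over FLOX (horizontal axis), of every tested gene of the 10 and of 8 further lists, 1 point per gene with vertical scatter only for legibility; orange points were called higher, blue lower, white not called, and black bars are list medians. The grey band spans the 5th to 95th percentile of all tested genes (-0.60 to 0.96). Of the 10 genes Gclm lies beyond this band.

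Markers of other cells also differed with genotype, where 23.8% of all tested genes were higher and 21.6% lower. Of 5 tested neutrophil and precursor markers 3 were higher in CKO, Ngp, Ltf and S100a9. All 3 were scarce, with means of 0.300 to 1.03 CPM in FLOX and 1.03 to 3.11 CPM in CKO. S100a8 was not called (edgeR adjusted p = 0.0695), and its groups overlapped. The sum of the 10 in the files was 7.27 to 13.2 CPM in CKO and 4.05 to 6.52 CPM in FLOX, with Elane at 0 in all libraries. Of 4 tested monocyte markers 2 were higher, among them Ccr2 (1.12), and 2 lower (Chil3, -1.90, and S100a4, -0.46), and their sum was lower in CKO (1019 to 1159 CPM against 1337 to 1748). Of 10 macrophage markers 1 was higher (Fcgr1, 1.04) and 5 lower, among them the Cre driver gene Lyz2 (-1.87), Mertk (-0.78) and Cd68 (-0.48). Sums of lymphocyte (2.06 to 3.56 CPM over both groups), stromal (1.95 to 3.08) and dendritic cell markers (2.65 to 4.25) were low in every library, with Cd3e, Cd3g, Cd8a, Ncr1 and Lum among those at 0. Tested members there were Cd4 (-1.34) and Cd79b (0.88), both called at means of 0.811 to 2.04 CPM, and Postn (-0.33) and Zbtb46 (0.43), not called. The part of these cells in the changes of the 10 genes was not tested.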

How the data were processed

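Total RNA libraries of macrophages, 4 CKO and 4 FLOX, were sequenced as paired ends on a NovaSeq instrument, per the labels' protocols. The tools named are HISAT2 2.0.5 and HTSeq, with mm10 as the build, per the submitters' processing notes. The authors deposited raw counts per gene symbol, 1 file per library. HTSeq's 5 classes of unassigned pairs, 28.3% to 33.7% of all, were left out, and 0 columns had no sample. Multiply aligned pairs were not assigned to genes.

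Differences were tested with edgeR 4.0.16 in R 4.3.3 (filterByExpr with minimum count 10 and total 15, TMM factors, quasi-likelihood F test, Benjamini-Hochberg over 11519 genes, called at 0.05). CPM use TMM-scaled library sizes. Intervals are 95% with 6 degrees of freedom. They were built from the log2 fold change and an SE taken from the F statistic. Since edgeR's own test does not use these fixed degrees of freedom, intervals and p-values need not match exactly. Ratios use counts plus 2. The fit was tested on simulated data. No 2 libraries of a group were alike within counting error (chi-square of 2.45 to 27.8 for each degree of freedom). Alternatives were other scaling and filters, DESeq2 1.42.0, limma 3.58.1 (voom), a replicate block, and libraries left out singly or in pairs. The genes and lists were chosen with earlier results of these data known. Named outside the 10 genes are up to 4 of smallest p per list, Opa1, Lyz2, Bach1 and the 3 nearest profiles to Nfe2l2 and Gclm. Positions and exon lengths come from GENCODE M21 (GRCm38, the assembly of mm10). Flvcr1 and Ly6g had no row in the files under these symbols. Me1, Aldh1l1, Mafg, Mafk, Gss, Txnrd2 and Txnrd3 were named after their values were seen. A few genes of the lists are not reported here by name.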

Additional observations from a re-analysis of the deposited data

Results flagged for a closer look

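Within a group of 4 libraries, 1 library stood far from the other 3 (a gap beyond Dixon's 95% limit) in 12 of 136 groups of values checked, where chance gives about 1 in 20. The groups of values come from the same libraries and are not independent, so this share was not tested against chance. Of the 10 genes 3 were concerned. Gclm was at 70.2 CPM in CKO replicate 2, below the other CKO libraries (76.6 to 77.6 CPM). Gclc was at 33.9 CPM in FLOX replicate 7, above the others (32.6 to 32.7 CPM), and Txnrd1 at 138 CPM in FLOX replicate 3, below the others (142 to 143 CPM). In both of these the whole FLOX range is narrow.

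CKO replicate 2 also stood apart for Mthfd2 (139 CPM, against 159 to 162), Fth1 (9158 CPM, against 7543 to 7610), Ncf1 (447 CPM, against 399 to 406), Ctss (4027 CPM, against 3360 to 3447) and Fblim1 (117 CPM, against 99.4 to 102). In each of these it was the CKO library nearest to FLOX. FLOX replicate 6 was high for Cat (292 CPM, against 280.0 to 282) and Cdca5 (22.5 CPM, against 15.4 to 16.4). Ctss and Fblim1 were picked for profiles like that of Nfe2l2, and Cdca5 for a profile like that of Gclm. The flags of these genes therefore largely follow from that choice and are no separate finding. Sesn2 was low in CKO replicate 8 (32.8 CPM, against 35.4 to 35.7) and Cd4 in FLOX replicate 7 (1.42 CPM, against 2.19 to 2.32).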

How the results depend on the processing

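Over 18 alternatives Nfe2l2 (log2 fold change -0.51 to -0.42), Gclm (1.11 to 1.36), Gclc (0.70 to 0.78), Gsr (0.47 to 0.65) and Txnrd1 (0.51 to 0.58) kept direction and call. The replicate number as a block, possible only through numbers 6 and 7 and leaving few degrees of freedom, gave 4 of the 10 genes higher and 1539 genes lower in all, and ended the calls of Keap1 (0.19, edgeR adjusted p = 0.245), Srxn1 (0.27, 0.0851) and Nqo1 (0.31, 0.252). With the block the list of superoxide and peroxide removal had 0 lower genes instead of 2 (Cat: edgeR adjusted p = 0.0731) and that of the phagocyte NADPH oxidase 4 instead of 7. It also gave 2 higher and 1 lower gene of NRF2 control, 4 higher glutathione genes, 2 lower NADPH supply genes, 0 higher and 2 lower haem and iron genes and 4 higher detoxifying genes. Without FLOX replicates 3 and 6 there were 6 higher thioredoxin genes, 5 lower genes of NRF2 control, 4 higher detoxifying genes and 2 lower haem and iron genes. Deviations of same-numbered libraries correlated at 0.14 (number 6) and -0.072 (number 7) across genes, so the numbers do not show a pairing. Nqo1 was also not called with upper-quartile factors (0.32), no filter (0.31), DESeq2 (0.32), limma-voom (0.31) and without CKO replicate 2 and FLOX replicate 6 together (0.27), and ran from 0.28 to 0.39 with each library left out in turn. Hmox1, not called in any of the 18, changed sign with upper-quartile factors (0.0011), limma-voom (0.000566), the block (0.046), the 20 most abundant genes removed (0.019), CKO replicate 2 and FLOX replicate 6 left out (0.012) and FLOX replicates 3 and 6 left out (0.055), and ran from -0.031 to 0.043 with single libraries left out. Prdx1 changed sign without FLOX replicates 3 and 6 (0.043). The ratio of Gclc to Gclm ran from -0.59 to -0.43 with single libraries left out, and that of Nfe2l2 to Keap1 from -0.74 to -0.66. Without CKO replicate 2 and FLOX replicate 6 they were -0.59 and -0.77 (exact permutation p = 0.1 each), and without FLOX replicates 3 and 6 -0.63 and -0.75 (exact permutation p = 0.0667 each), the smallest p that so few libraries allow. That of Nfe2l2 to Bach1 ran from -0.066 to 0.19 with single libraries left out and was 0.38 without FLOX replicates 3 and 6 (exact permutation p = 0.0667, again the smallest allowed), against 0.058 with all 8 libraries; it was not called in any of these. Of Opa1, Lyz2 and the other genes named for a small p or a like profile, Sod1 and Postn changed sign. Sod1 was at -0.040 without FLOX replicate 7 and ran from -0.040 to 0.10 over single libraries left out. It was 0.205 and called without FLOX replicates 3 and 6. Postn was at 0.027 without FLOX replicates 3 and 6. Neither was called in the comparison of all 8 libraries. Bach1 and the genes named after their values were seen were not followed singly over the alternatives.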
